A study of Rattus norvegicus with 2 samples.

Results

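Histone genes were examined in the hypothalamus of female Sprague Dawley rats, untreated as far as the labels say. Prepubertal rats were taken on postnatal day 25 and pubertal rats on postnatal day 35, when first estrus was reached. The members were the genes of the mRNA table whose symbol begins with Hist1h, Hist2h or Hist3h, here called replication-dependent, or with H2af, H3f3 or H1f, here called variant. This rule took 54 of 22777 genes, with 39 replication-dependent and 15 variant genes and 55 transcripts in all. The study's methods give 3 rats per stage, and 1 column of values for each stage was used here. A column is called a library here, and without replicates none of the differences below could be tested. The tissue was checked by 12 peptide genes of hypothalamic neurons, all above 0 in both libraries, with Pmch highest at 1675 and 2723 FPKM (prepubertal given first here and in every such pair of values).

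Histones are the proteins around which DNA is wound in the nucleus. An octamer of H2A, H2B, H3 and H4 forms the nucleosome core and H1 binds the linker DNA. Replication-dependent genes lie in clusters, have no introns, are transcribed mainly in S phase, and most of their mRNAs end in a stem-loop in place of a poly(A) tail. Such mRNAs are largely lost when poly(A) RNA is selected and are kept when ribosomal RNA is removed, as was done here. Variant genes such as H3f3b and H2afz are expressed outside S phase, have polyadenylated mRNAs, and supply non-dividing cells such as neurons.

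Short motifs were counted in the stretch before the start sites, which the rule did not use. RefSeq promoters (build GRCr8) could be matched to 36 of the 44 member symbols, 25 replication-dependent and 11 variant. In the 250 bases before the start, the CCAAT box (CCAAT on either strand) was found in 24 of 25 replication-dependent and 6 of 11 variant genes, against 34.0% of 33469 RefSeq promoters. The replication-dependent gene without it was Hist1h4b, the only H4 symbol matched, so the other H4 symbols are not covered by these counts. TATAA on either strand, the core of the TATA box, was found in 21 of 25 and 1 of 11, against 24.0% of all promoters. AAACACA on either strand, known from H1 promoters, was found in 4 of 25 and 1 of 11, against 6.08% of all. Among H1 genes it was found in 1 of 2 replication-dependent and 1 of 4 variant promoters. The other matches lay before Hist1h2ac, Hist1h2aa and Hist1h2ba, which are H2A and H2B genes. Of the 25 genes, 3 pairs share most of the counted stretch, and with each pair counted 1 time the motifs were found in 21, 18 and 3 of 22 stretches. The matches are a description of the letters and not of binding. The sequences below are shown because they carry this contrast, the first 3 from replication-dependent and the last 2 from variant genes, with capitals for the motifs. The first 2 are the whole stretch between the starts of a pair of genes transcribed away from each other, on the plus strand of chr10:44233066-44233282 and chr17:41599673-41599911. The others are the 250 bases before the start on the strand of the gene, chr17:41794869-41795118 (minus), chr2:229028845-229029094 (plus) and chr7:112473030-112473279 (plus).
Hist3h2bb and Hist3h2a: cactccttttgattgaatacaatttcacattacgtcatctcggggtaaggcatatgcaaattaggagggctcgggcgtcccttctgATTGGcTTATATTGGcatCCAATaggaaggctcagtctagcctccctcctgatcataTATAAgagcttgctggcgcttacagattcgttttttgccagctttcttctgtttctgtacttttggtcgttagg
Hist1h2aa and Hist1h2ba: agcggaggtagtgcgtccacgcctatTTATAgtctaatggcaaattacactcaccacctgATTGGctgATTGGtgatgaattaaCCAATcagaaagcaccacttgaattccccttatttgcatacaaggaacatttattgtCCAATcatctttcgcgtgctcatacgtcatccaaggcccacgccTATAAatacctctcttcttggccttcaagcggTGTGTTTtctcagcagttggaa
Hist1h1a: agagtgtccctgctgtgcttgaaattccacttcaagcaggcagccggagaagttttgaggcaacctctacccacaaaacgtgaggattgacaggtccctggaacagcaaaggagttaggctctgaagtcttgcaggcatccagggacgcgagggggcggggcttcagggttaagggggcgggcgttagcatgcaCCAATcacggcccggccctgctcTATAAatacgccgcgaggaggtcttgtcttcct
H2afz: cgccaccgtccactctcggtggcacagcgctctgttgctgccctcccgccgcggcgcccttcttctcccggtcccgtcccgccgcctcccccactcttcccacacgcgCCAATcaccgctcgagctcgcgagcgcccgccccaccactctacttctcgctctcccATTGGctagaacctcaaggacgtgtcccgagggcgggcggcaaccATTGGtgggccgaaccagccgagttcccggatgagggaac
H1f0: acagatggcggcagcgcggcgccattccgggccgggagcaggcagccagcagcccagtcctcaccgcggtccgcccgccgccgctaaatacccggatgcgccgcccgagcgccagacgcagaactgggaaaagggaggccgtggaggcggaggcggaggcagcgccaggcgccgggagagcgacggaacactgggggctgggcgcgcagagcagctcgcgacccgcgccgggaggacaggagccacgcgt
The pair of Hist3h2bb and Hist3h2a shares 217 bases with CCAAT boxes and TATAA on both strands, where 1 TATAA and 1 CCAAT box overlap. The H2afz stretch holds CCAAT boxes without TATAA, and the H1f0 stretch holds none of the 3 motifs.

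Levels are given in FPKM, the sequenced fragments of a transcript scaled by its length and by the depth of the library, as the authors estimated them for each transcript and summed here per gene. The difference between the stages is log2 of (FPKM + 1) at puberty over (FPKM + 1) before puberty, so that positive values mean a higher level at puberty and the added 1 shrinks the ratios of low genes. The low FPKM of each library were mostly whole multiples of a step that depends on transcript length, the worth of 1 fragment. The steps corresponded to a depth of about 20700000 fragments before puberty and 16200000 at puberty, and 95.3% and 94.8% of the low values came out whole within 0.02 of a fragment. By the same steps, 1 fragment was worth about 0.833 and 0.980 FPKM for a transcript of 312 nt, and 0.0312 and 0.0398 FPKM for one of 1800 nt. The steps were fitted on transcripts of at least 600 nt, so those of shorter transcripts, and the fragments behind them, are extrapolated. Fragments behind a gene are given below where they limit its value, with exact Poisson 95% intervals, which cover counting error only and not the spread between rats. For genes that share fragments with copies they are approximate.

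Replication-dependent genes made up most of the histone signal in both libraries. Their summed FPKM was 5595 before and 5784 at puberty, against 1020 and 964 for the variant genes, which is 84.6% and 85.7% of the histone sum. The H4 genes alone held 68.6% and 69.8%, and without them the replication-dependent share was 50.8% and 52.7%. This share depends on how length enters. The FPKM of short transcripts are divided by their length less the length of a fragment, and 35 of the 39 replication-dependent models have a length that is a multiple of 3, as coding length without UTRs gives. Such lengths were also found for 9 of 15 variant genes and 12199 of all 22777 genes. Of 1065 genes of 300 to under 700 nt with at least 1 FPKM in a library, 738 had them. When the fragments were divided by the full model length, the replication-dependent share was 64.7% and 68.2%. Counted in fragments, with no length at all, it was 38.2% and 42.1%. On each of these scales the share was higher in the pubertal library. Full model length and fragments both rest on length offsets fitted to each library, 255 and 250 nt, and extrapolated to short models. These scales are therefore not independent of that fit.

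**Figure D1:**
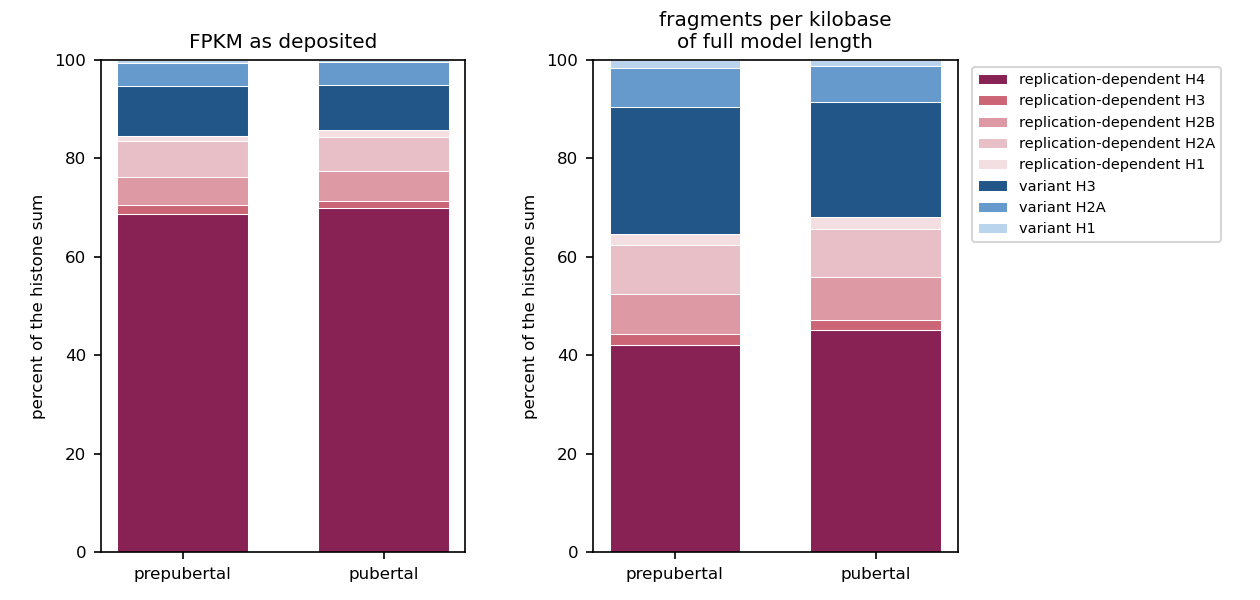
Percent of the histone sum from each histone class (vertical axis) in the prepubertal and the pubertal library, for FPKM as deposited (left) and for fragments divided by full model length (right). Red shades are replication-dependent and blue shades variant genes, with H4 at 68.6% and 69.8% on the left and 42.0% and 45.1% on the right.

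Between the stages, the replication-dependent genes had a small positive and the variant genes a small negative median. Of the 39 replication-dependent genes 26 were higher and 13 lower at puberty, with a median log2 ratio of 0.10 and a range from -1.12 to 2.01. Of the 15 variant genes 3 were higher, 10 lower and 2 listed at 0 in both libraries, with a median of -0.09 and a range from -0.46 to 0.17. Scaling the libraries to equal medians left the former counts as they were and made the latter 4 higher and 9 lower. Over all 22777 genes 38.9% were higher and 40.4% lower, with a median of 0.00, and 4725 genes were listed at 0 in both libraries. Among genes with at least 1 FPKM in a library 48.9% were higher and 51.1% lower. Transcript length went along with the ratio. Over genes of 300 to under 700 nt with at least 1 FPKM in a library 59.5% were higher, 40.5% were lower and the median was 0.09, against 0.02 for genes of 1000 to 3000 nt. The quartiles of the ratio were -0.22 and 0.36 for the replication-dependent genes, -0.17 and 0.32 for those short genes, -0.24 and 0.00 for the variant genes and -0.11 and 0.09 for all genes. The median length was 393 nt for the replication-dependent and 1149 nt for the variant genes. Among members of 300 to under 700 nt with at least 1 FPKM in a library, 21 of 34 replication-dependent genes (median 0.10) and 1 of 4 variant genes (median -0.09) were higher. The part of length in the difference between the kinds was not tested. The log2 ratio of the sums was 0.05 for the replication-dependent and -0.08 for the variant genes, against 0.06 for the whole mRNA table. The former became 0.11 with equal medians, 0.14 with full model length and 0.03 without H4 genes, and the latter -0.02 with equal medians.

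**Figure D2:**
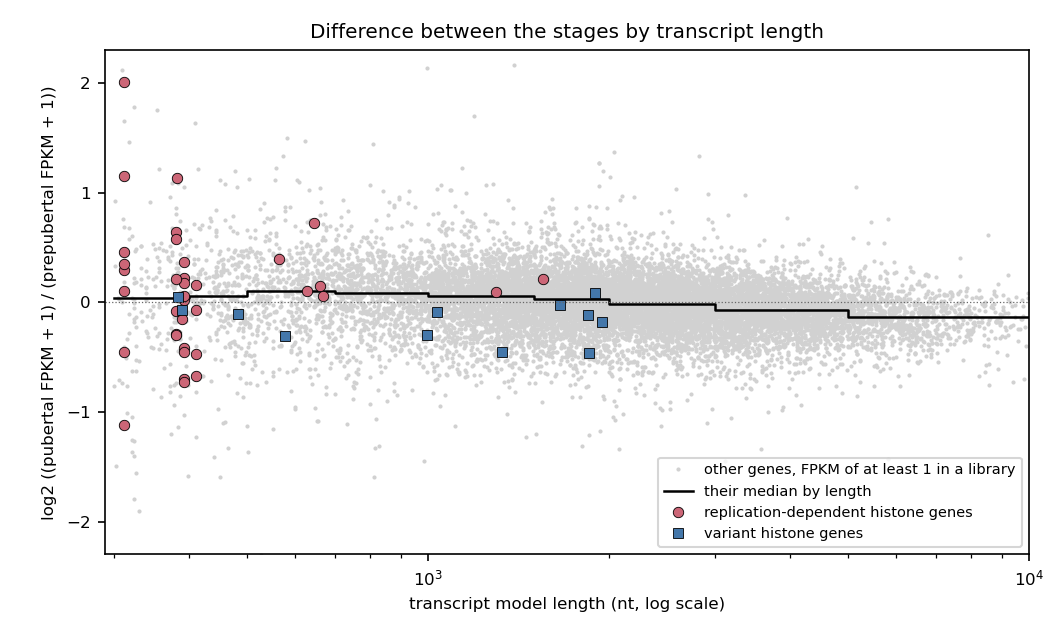
The log2 ratio of FPKM + 1, pubertal over prepubertal (vertical axis), against transcript model length in nt (log axis) for histone genes and all other genes with at least 1 FPKM in a library, where other genes beyond the axes are not shown and the black line is their median by length. The replication-dependent genes cluster at short lengths and spread from -1.12 to 2.01, whereas the variant genes shown lie between -0.46 and 0.09.

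Among the 54 members, 4 differed 2-fold or more in FPKM + 1 (7.41%), 3 higher and 1 lower at puberty. The same was true of 0.681% of all genes, 0.307% higher and 0.373% lower, and of 5.82% of genes of 300 to under 700 nt with at least 1 FPKM in a library, 3.0% higher and 2.82% lower. All 4 were replication-dependent, Hist2h4a, Hist1h2bd and 2 of the genes named Hist1h4b, and 3 of them were H4 genes. With 1.5-fold, 9 members passed, all replication-dependent, 5 higher and 4 lower (16.7% of the members). This was reached by 3.29% of all genes, 1.43% higher and 1.86% lower, and by 16.7% of the short genes, 8.73% higher and 7.98% lower. Of the 38 members that are short in this sense and reach 1 FPKM, 4 passed 2-fold (10.5%) and 9 passed 1.5-fold (23.7%), each to be read against the short genes. The counting intervals, set on the FPKM scale so that both depths can be compared, were apart for 14 members, against 17.9% of the genes with 1 transcript of at least 300 nt (8.05% higher and 9.88% lower) and 22.2% of those that are short and reach 1 FPKM (18.0% higher and 4.17% lower). Of the 38 short members 9 had intervals apart (23.7%), 7 higher and 2 lower, a share near that of the short genes. Apart from Hist1h1a, Hist1h2ah (ENSRNOG00000049649) and Hist1h2bd, these were H4 genes. The H4 copies can share fragments, which the intervals do not cover. Of the 14 members, 8 replication-dependent genes were higher, and 2 replication-dependent and 4 variant genes were lower.

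**Figure D3:**
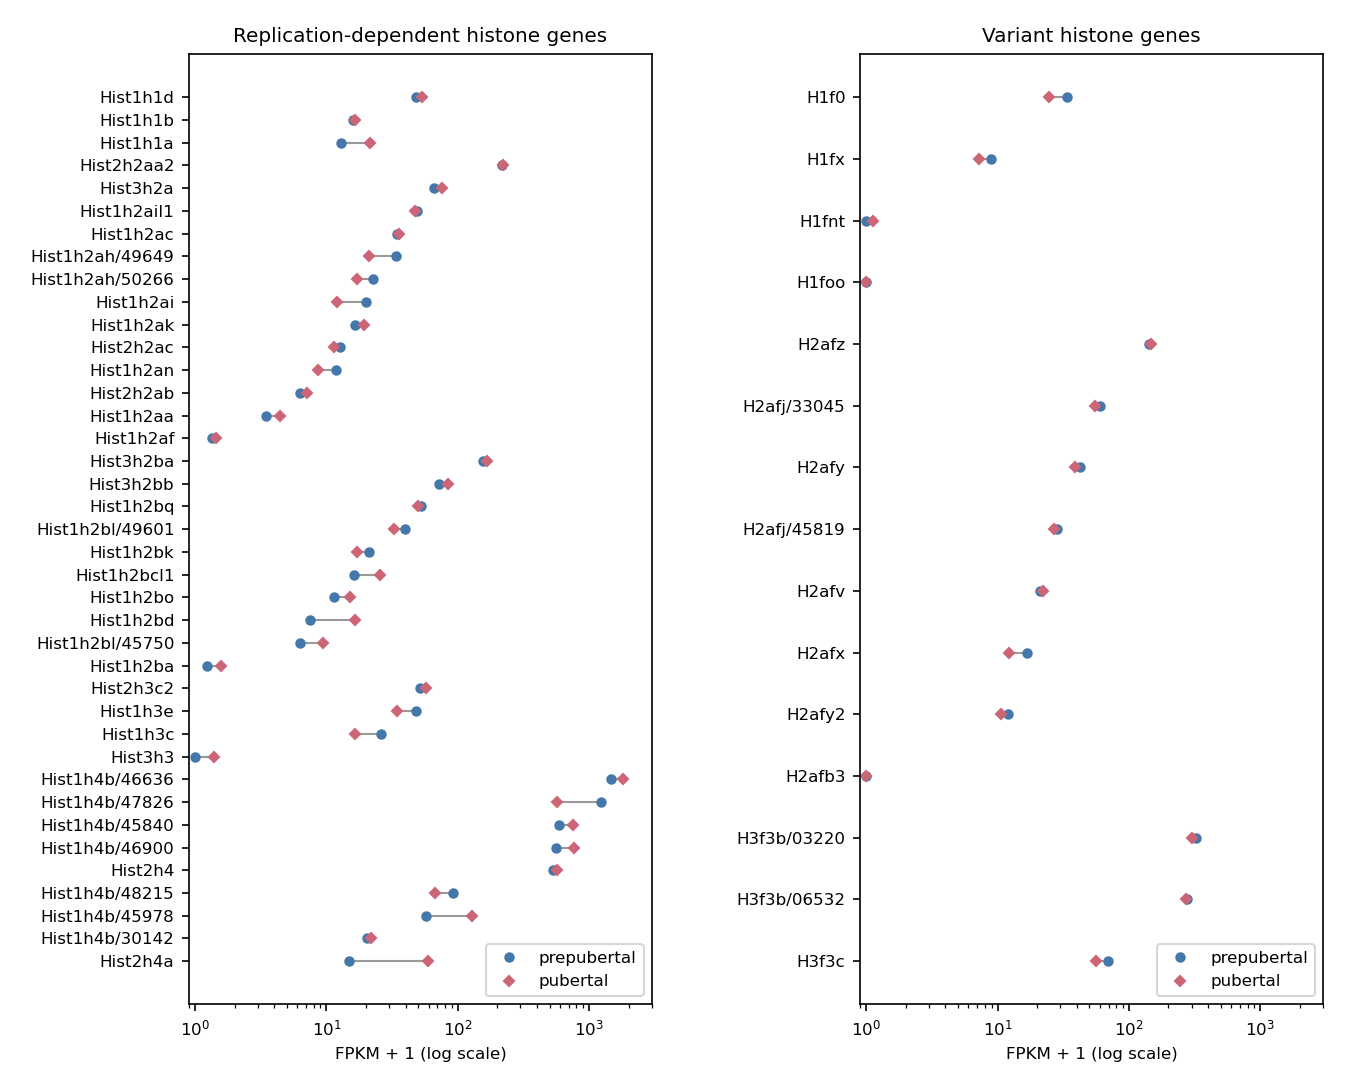
FPKM + 1 (log axis) of each of the 54 histone genes in the prepubertal (circle) and the pubertal (diamond) library, replication-dependent left and variant right. Genes with the same symbol carry the last digits of their identifier, and the widest gaps are those of Hist2h4a, Hist1h2bd and 2 of the genes named Hist1h4b.

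The H4 genes encode the core histone that pairs with H3, and their proteins are identical or nearly so. The table holds 9 of them, Hist2h4, Hist2h4a and 7 gene identifiers with the symbol Hist1h4b, and 8 of the 9 models are 312 nt long. The highest was Hist1h4b (ENSRNOG00000046636), with 1463 FPKM before and 1794 at puberty (log2 ratio 0.29). Hist1h4b (ENSRNOG00000047826) went from 1226 to 564 FPKM (-1.12), the lowest log2 ratio among the members. In the opposite direction, ENSRNOG00000045840 went from 588 to 749.9 FPKM (0.35) and ENSRNOG00000046900 from 553 to 761 FPKM (0.46), both also named Hist1h4b. Hist2h4 was nearly level, with 530.2 and 570.2 FPKM (0.10). The 4 others were far lower. Hist1h4b (ENSRNOG00000048215) had 90.2 and 65.7 FPKM (-0.45), and ENSRNOG00000030142 of the same symbol, the 1 longer model with 1296 nt, had 19.3 and 20.7 FPKM (0.09). Hist1h4b (ENSRNOG00000045978) went from 56.5 to 127 FPKM (1.15) and Hist2h4a from 13.8 to 58.7 FPKM (2.01), the largest log2 ratio among the members. These differences rest on few fragments, about 68 (interval 52.8 to 86.2) and 129 (107.7 to 153.3) for the former and 17 (9.9 to 27.2) and 60 (45.8 to 77.2) for the latter.

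As a class the H4 genes had a sum of 4540 FPKM before and 4711 at puberty, a log2 ratio of 0.05 that became 0.12 with equal medians and 0.17 with full model length. The last value rests on extrapolated fragments, since 312 nt lies little above the fitted offsets of 255 and 250 nt. The FPKM of Hist1h4b (ENSRNOG00000047826) differed by -662 between the libraries, and the other 8 H4 genes together were higher by 833 FPKM at puberty. Fragments can be shared between H4 copies in these values. Hist1h4b (ENSRNOG00000045978) was listed with exactly the same FPKM in both libraries as LOC100912564 and LOC100912290, and in the prepubertal library also as LOC100912418, all of 312 nt and outside the rule, chosen here after their values were seen. Values of single H4 genes are therefore uncertain. The class sum does not depend on how fragments were divided among the 8 models of 312 nt, but it would change if fragments moved to or from the model of 1296 nt, where each adds far less FPKM, or to copies with other symbols.

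**Figure D4:**
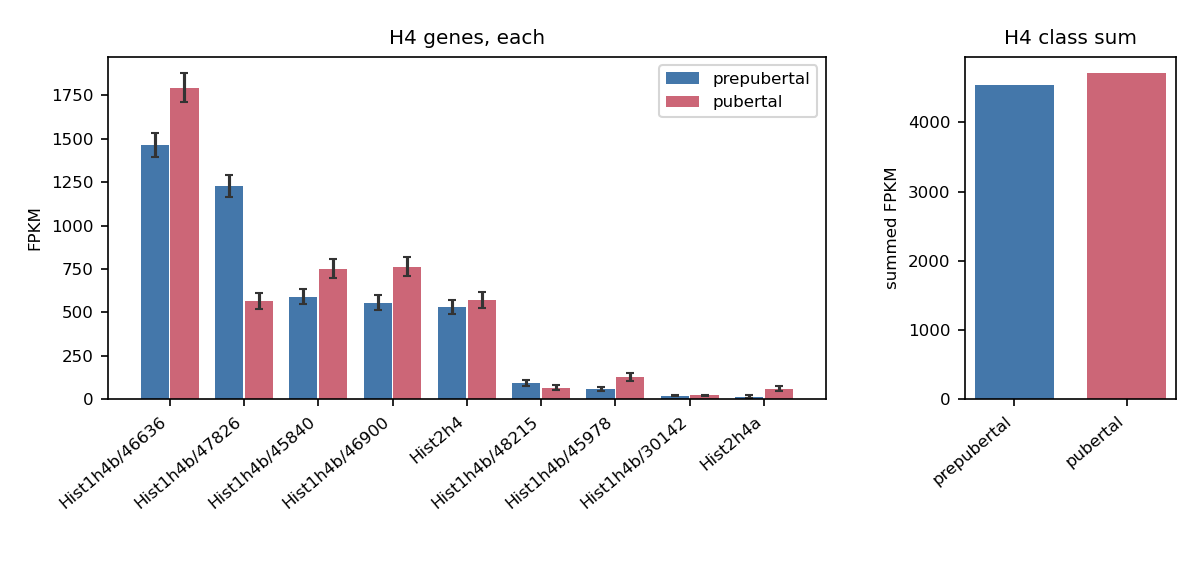
FPKM of each of the 9 H4 genes (left) and their sum (right) in the prepubertal and the pubertal library, with bars for exact Poisson 95% intervals of the fragments, which cover counting error only. Single genes differ in opposite directions, whereas the sums are 4540 and 4711 FPKM.

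The replication-dependent H3 genes were low beside H4, with a sum of 122.9 FPKM before and 106 at puberty (log2 ratio -0.21). H3 pairs with H4 in the nucleosome core. Hist2h3c2 was listed at 50.7 and 56.7 FPKM (0.16). Hist1h3e went from 47.0 to 33.5 FPKM (-0.47) and Hist1h3c from 25.2 to 15.4 FPKM (-0.67), and the counting intervals of all 3 genes overlapped between the libraries. Hist3h3, in human a testis gene, stayed under 1 FPKM.

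Most H3 signal came from the variant H3.3, which replaces H3 outside S phase at active genes and in neurons. The genes with the prefix H3f3 held 84.4% of all H3 FPKM before and 85.5% at puberty. The symbol H3f3b is carried by 2 identifiers, ENSRNOG00000003220 with 321 and 301 FPKM (-0.09) and ENSRNOG00000006532 with 276 and 271 FPKM (-0.02), and which gene each stands for was not resolved here. H3f3c went from 67.7 to 55.0 FPKM (-0.29), on about 1039 and 665 fragments. All 3 were lower at puberty, and with equal medians ENSRNOG00000006532 turned to 0.04. Their sum went from 664 to 627 FPKM (-0.08). H3.3 genes have processed copies in the genome, so their fragments can have been split.

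The 13 replication-dependent H2A genes summed to 484 FPKM before and 471 at puberty (log2 ratio -0.04, or 0.02 with equal medians and 0.04 with full model length). Of these 13 genes, 7 were higher and 6 lower, against 59.5% higher among the short genes that reach 1 FPKM. Hist2h2aa2 was the highest of the 13, at 218 and 221 FPKM (0.02). Hist3h2a followed with 64.5 and 74.9 FPKM (0.21), and its 1552 nt model gave it about 1734 and 1582 fragments, the best counted H2A gene. Of the genes of the Hist1h cluster, Hist1h2ail1 had 48.2 and 45.9 FPKM (-0.07) and Hist1h2ac 33.6 and 34.998 FPKM (0.06). Lower ratios were found for Hist1h2ah (ENSRNOG00000049649), from 33.0 to 20.0 FPKM (-0.70), and Hist1h2ai, from 18.9 to 10.99 FPKM (-0.73). The second gene named Hist1h2ah (ENSRNOG00000050266) had 21.8 and 16.1 FPKM (-0.42), and Hist1h2an had 10.9 and 7.68 FPKM (-0.45). These 4 genes rest on 18 to 95 fragments per library. The intervals of both libraries were apart for the first of them alone. Hist1h2ak had 15.5 and 18.2 FPKM (0.22), Hist2h2ac 11.7 and 10.5 FPKM (-0.15) and Hist2h2ab 5.28 and 6.08 FPKM (0.17). Hist1h2aa, known from testis, had 2.46 and 3.47 FPKM, about 7 and 8 fragments. Hist1h2af stayed under 1 FPKM.

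The 10 replication-dependent H2B genes summed to 373 FPKM before and 408 at puberty (log2 ratio 0.13). Of these 10 genes, 7 were higher and 3 lower, against 59.5% higher among the short genes that reach 1 FPKM. Counting intervals were apart for Hist1h2bd alone. Hist3h2ba was the highest, with 154 and 165 FPKM (0.10) on about 1199 and 1021 fragments. Hist3h2bb had 71.1 and 82.6 FPKM (0.21) and Hist1h2bq 51.5 and 48.75 FPKM (-0.08). The symbol Hist1h2bl is carried by ENSRNOG00000049601, with 38.9 and 31.7 FPKM (-0.28), and ENSRNOG00000045750, with 5.26 and 8.36 FPKM (0.58), the former lower and the latter higher at puberty. Hist1h2bk had 20.0 and 16.1 FPKM (-0.30), Hist1h2bcl1 15.3 and 24.5 FPKM (0.65) and Hist1h2bo 10.5 and 14.1 FPKM (0.40). Hist1h2bd went from 6.49 to 15.5 FPKM (1.14), on about 17 and 33 fragments, which gives intervals of 3.78 to 10.4 and 10.7 to 21.7 FPKM that lie apart. Hist1h2ba, the testis H2B, stayed under 1 FPKM.

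Hist3h2a, Hist3h2ba and Hist3h2bb were all higher at puberty, by log2 ratios of 0.10 to 0.21, and their summed FPKM went from 290 to 323. Hist3h2bb and Hist3h2a, which share the stretch printed above, had close levels in each library, 71.1 and 64.5 FPKM before and 82.6 and 74.9 FPKM at puberty, and log2 ratios of 0.21 each. The closeness of their levels rests on the length used in FPKM, since with full model length they stood at 23.7 and 54.0 before and 28.6 and 62.9 at puberty. Hist1h2bo and Hist1h2ai lie head to head with 263 bases between them in GRCr8 and had log2 ratios of 0.40 and -0.73. These rest on 67 and 72 fragments for Hist1h2bo and 54 and 26 for Hist1h2ai, and for each gene the counting intervals of the libraries overlapped. The testis pair Hist1h2aa and Hist1h2ba, 239 bases apart and with CCAAT boxes and TATAA on both strands of the printed sequence, did not pass 3.47 FPKM. Over the clusters, 17 of 29 Hist1h, 5 of 6 Hist2h and 4 of 4 Hist3h genes were higher at puberty, against 48.9% of the genes and 59.5% of the short genes that reach 1 FPKM. The last count includes Hist3h3, with 0 and about 1 fragment, and of the Hist3h genes Hist3h2a alone had intervals that were apart.

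Variant H2A genes held 39.4% and 39.5% of the H2A signal, with sums of 315 and 307 FPKM (log2 ratio -0.04, or 0.03 with equal medians). H2afz encodes H2A.Z, found at promoters, and had the highest level, 141 and 146 FPKM (0.05). H2afv, the second H2A.Z gene, had 20.0 and 21.4 FPKM (0.09). Both H2A.Z genes were thus slightly higher at puberty, within the counting intervals. The symbol H2afj is carried by ENSRNOG00000033045, with 58.9 and 54.6 FPKM (-0.11), and ENSRNOG00000045819, with 27.3 and 26.0 FPKM (-0.07). H2afy and H2afy2 encode macroH2A, a long H2A known from silent chromatin, and had 41.4 and 38.1 FPKM (-0.12) and 11.1 and 9.65 FPKM (-0.18). H2afx encodes H2A.X, which is phosphorylated at DNA breaks and is made partly in S phase, and went from 15.7 to 11.2 FPKM (-0.46), on about 351 and 196 fragments with intervals that were apart. H2afb3, known from testis, was listed at 0 in both libraries.

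Among the linker histones, counting intervals were apart for Hist1h1a, which was higher at puberty, and H1f0, which was lower, and overlapped for the others. The 3 replication-dependent H1 genes were higher at puberty, with a sum of 73.9 and 88.4 FPKM (log2 ratio 0.26), and the 2 variant H1 genes above 1 FPKM were lower. Hist1h1a went from 11.9 to 20.4 FPKM (0.73), on about 96 and 131 fragments, which gives intervals of 9.64 to 14.5 and 17.0 to 24.2 FPKM that lie apart. Hist1h1d had 47.2 and 52.5 FPKM (0.15) and Hist1h1b 14.8 and 15.5 FPKM (0.06). H1f0 encodes H1.0, the linker histone that accumulates in differentiated cells, and went from 32.9 to 23.7 FPKM (-0.46), on about 1090 and 615 fragments. H1fx had 7.91 and 6.21 FPKM (-0.31). The variant share of H1 FPKM was 35.6% before and 25.3% at puberty. The testis gene H1fnt stayed under 1 FPKM and the oocyte gene H1foo was listed at 0 in both libraries.

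Genes that act on histone mRNA and histones were given as counts over lists. Of 15 genes of histone transcription and 3′ end processing, 9 were higher and 6 lower, with a median log2 ratio of 0.03 and none past 2-fold. The highest was Cstf3, a cleavage factor of 3′ ends, with 529 and 387 FPKM (-0.45). It lay far above the rest of the list and no fragment number was derived for it, so its level is uncertain. Slbp, which binds the stem-loop and is given for this role after its values were seen, had 37.99 and 42.7 FPKM (0.16). Of the 6 chaperones of replication 1 was higher and 5 lower (median -0.03), which turned to 5 higher and 1 lower (0.02) with equal medians. Rbbp4 was highest at 94.3 and 93.1 FPKM. Of the 11 chaperones of variants 3 were higher and 8 lower (median -0.06), or 5 and 6 with equal medians (-0.01). By the mean of both libraries Anp32e, a remover of H2A.Z, was highest, at 42.4 and 33.9 FPKM (-0.31), and in the pubertal library Vps72 lay above it at 34.4 FPKM. Of 9 general chaperones 3 were higher and 6 lower (median -0.10), or 4 and 5 with equal medians (-0.04), with Nap1l5 highest at 788 and 709.97 FPKM. No gene of these lists differed 2-fold, against 0.681% of all genes. Of the other histone genes sought, Hils1, Cenpa and H2bfm were found, all under 1 FPKM.

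Genes of DNA replication and the cell cycle were mostly lower at puberty, 15 of 20, with a median log2 ratio of -0.14 and none past 2-fold. Of all genes above 0 in a library 51.0% were lower, and with equal medians 13 of the 20 were (median -0.09). Their sum hardly differed and lay the other way, at 167 and 169 FPKM (log2 ratio 0.02). The highest was Pcna, the sliding clamp of DNA polymerase, with 51.2 and 59.1 FPKM (0.20). The 5 markers of cycling cells, all of them among these 20 genes, summed to 8.82 and 6.35 FPKM, with 4 lower and 1 higher. All 5 markers of oligodendrocyte progenitors, a cell type that divides in the young brain, were lower, with sums of 167 and 135 FPKM. The replication-dependent histone sum was 5595 and 5784 FPKM beside them. Other cell markers differed as well. The list of hypothalamic neurons had a sum of 2700 and 4110 FPKM, with 10 of 12 genes higher and a median log2 ratio of 0.31. The red cell list, 5 genes found of 8 listed, had a sum of 6410 and 12500 FPKM, with 5 of 5 genes higher and Hbb past 2-fold at 2130 and 5898 FPKM. The pituitary list had 31.6 and 44.0 FPKM, with 4 of 5 genes higher, and past 2-fold were Gh1 at 0.872 and 4.09 FPKM and Prl, listed at 0 and 3.395 FPKM. The choroid plexus list had 33.7 and 28.8 FPKM, with 3 of 4 genes higher, and the immature neuron list 1520 and 1680 FPKM, with 2 of 5 higher. Their part in the histone values was not tested. In bulk tissue, fewer cells of a type and less RNA per cell cannot be told apart.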

How the data were processed

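RNA of the hypothalamus was sequenced at 2 stages. By the methods, total RNA was depleted of rRNA and a directional kit gave paired-end libraries, whose reads were aligned with TopHat and assembled with Scripture and Cufflinks. The authors deposited FPKM per transcript, estimated with Cuffdiff (Cuffdiff 2.1.1 and Rnor_5.0 in the submitters' processing notes, while the paper's methods link an annotation of a later rat build, so the build was not settled here). How the rats of a stage were combined is not given in the sources used here. A deposited table also holds the authors' log2 ratios, p-values and q-values, which were not used, while its gene names and model lengths in nt were. The lncRNA tables were not used here. For 13 mRNA transcripts, 0 of them members, the deposited FPKM differed between the tables.

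FPKM were summed per gene identifier, with a pseudocount of 1 and no filter. With 1 column per stage no test was run. The worth of 1 fragment was found by a grid search over depth and a length offset (255 and 250 nt) on genes with 1 transcript of at least 600 nt and 0.8 to 4.4 fragments (1255 and 1392 values), checked on simulated data. Scaling by Cuffdiff may be contained in these depths. Members with at least 1 FPKM in a library were named with values and the others by symbol, with the highest gene of each companion list and those past 2-fold. Cell markers are given as lists with examples. The members and lists were chosen with earlier results of these data known. Promoters and gene neighbours are from RefSeq GRCr8, and no genome was used here. Of the symbols, 3 were ambiguous, 3 unmatched and 2 had no sequence. Values were computed in Python 3.11.15 (pandas 2.3.3, numpy 2.4.6), intervals in scipy 1.17.1, and plots were drawn in matplotlib 3.10.9.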

Additional observations from a re-analysis of the deposited data

How the results depend on the processing

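Alternatives were a pseudocount of 0.1, FPKM filters (above 0 in both libraries, at least 0.1, at least 1), the transcript with the highest FPKM, equal medians (pubertal values multiplied by 1.05), the FPKM of the comparison table, identical values counted 1 time and a threshold of 1.5-fold. Members of 300 to under 700 nt alone, full model length and leaving out H4 were added after seeing the data. A value was taken as moved beyond 0.1 on the log2 scale, 1 percentage point or 1.5 times a count. The comparison table and counting identical values 1 time could not move a value, since no member differs or repeats there. The number of members changed at least 2-fold was 4, and became 7 with a pseudocount of 0.1, 9 with 1.5-fold and 1 without H4 genes. The genes added by the pseudocount of 0.1 were Hist1h2ba, Hist3h3 and the variant gene H1fnt, at 0 to 2 fragments per library. The share of all genes was not counted at that pseudocount. The replication-dependent share of 84.6% and 85.7% became 64.7% and 68.2% with full model length and 50.8% and 52.7% without H4 genes. The log2 ratio of the H4 sum became 0.17 with full model length, which rests on fragments extrapolated to short models. Over the alternatives run for each, the median log2 ratio lay between 0.09 and 0.17 for replication-dependent and between -0.11 and -0.03 for variant genes, and their difference between 0.17 and 0.25. With equal medians the sums of the replication-dependent and the variant H2A genes changed sign, from -0.04 each to 0.02 and 0.03, and so did the median of the replication chaperones, from -0.03 to 0.02. No paired analysis was possible because each stage has 1 column. Depth limits the members at few fragments, and the spread between rats is unknown.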
